A study of Mus musculus with 6 samples.

Results

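Dense clusters are places where many intervals bound by OCT4 or NANOG lie close together in the genome of mouse embryonic stem cells (ESCs). The members were chosen by the measured peak positions: the distinct intervals of all 6 peak lists were sorted by position, neighbours at most 12.5 kb apart were chained, and chains of 5 or more intervals were kept. This gave 301 clusters with 1864 of the 23767 intervals (7.84%). The lists that chose the clusters are the lists that show what became of each interval, so all binding values below describe these libraries, and no p-value was computed.

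The study asked how OCT4 and NANOG binding changes as ESCs lose *Esrrb*, and performed ChIP-Seq for both factors on sorted E-GFPd1 cells (labelled Esrrb-2a-GFPd-IBIH). This is 1 clonal line derived from E14Tg2a ESCs, in which a destabilised GFP is expressed from both *Esrrb* alleles through a 2a peptide, so that fluorescence follows *Esrrb* transcription. All cells were cultured in foetal calf serum and LIF, fixed with formaldehyde and sorted by fluorescence. Esrrb-GFP high cells were the brightest 10%, Esrrb-GFP medium cells were the 15% that bordered on the cells without fluorescence, and the latter were Esrrb-GFP negative. OCT4 was precipitated with a goat polyclonal antibody and NANOG with a rabbit antibody made by the authors' laboratory, and pooled ChIPs gave 1 library per factor and fraction (6 libraries). No sample is a replicate of another, and the depth of the libraries is unknown because the lists hold positions only. GFP selects the fractions, but no expression or marker value is part of these lists, so the identity of the sorted cells could not be checked here.

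OCT4 and NANOG are transcription factors of the pluripotency network. OCT4 binds DNA through the octamer motif and, beside SOX2, through the composite Oct-Sox motif, and it is present in naive and primed pluripotent cells. The orphan nuclear receptor ESRRB belongs to the naive state. NANOG is reduced together with ESRRB when ESCs move towards differentiation, but the study describes *Nanog* as expressed in primed cells too. Stretches of ESC chromatin with many closely spaced factor-bound sites are known as enhancer clusters or super-enhancers, and they often lie at genes of cell identity; the clusters here were defined by the spacing of intervals alone and not by signal strength or histone marks.

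The names used for the fate of an interval compare the lists. An OCT4 interval of high was called lost when it was absent from the OCT4 list of negative and kept when it was present there, and an OCT4 interval of negative that was absent in high was called gained. Intervals with both factors in high and neither in negative are termed Class I, and those with both factors in high and OCT4 without NANOG in negative are termed Class II. Presence follows the authors' lists, in which a merged peak was removed from a fraction that retained too little of its highest depth-normalised signal, so that a lost interval is one that fell below that limit. The study reports that OCT4 positions of negative without a peak in high had, on average, detectable OCT4 in high as well. A gained interval is therefore not shown to be newly bound.

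Close intervals of 1 cluster could have opposite fates, and the sequences of such pairs are given here. They were taken from the mm9 (NCBIM37) genome, plus strand, for the closest Class I and Class II intervals of the 4 largest clusters at the named genes that hold both in 300 bp or less. Capitals mark matches, on either strand, to the octamer (ATGCAAAT), Oct-Sox, ESRRB (TCAAGGTCA, 1 mismatch allowed) or KLF (GGGCGTGG or GGGTGTGG) motif.
*Etv5* Class I, chr16:22412992-22413251: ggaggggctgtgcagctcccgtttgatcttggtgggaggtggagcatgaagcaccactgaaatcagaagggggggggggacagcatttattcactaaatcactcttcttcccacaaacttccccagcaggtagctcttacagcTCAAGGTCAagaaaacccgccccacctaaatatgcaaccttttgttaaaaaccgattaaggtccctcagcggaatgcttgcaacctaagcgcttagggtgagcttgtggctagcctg
*Etv5* Class II, chr16:22412012-22412111: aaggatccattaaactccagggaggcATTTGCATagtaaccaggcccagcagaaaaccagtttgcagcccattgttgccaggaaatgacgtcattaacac
*Epha4* Class I, chr1:77438112-77438291: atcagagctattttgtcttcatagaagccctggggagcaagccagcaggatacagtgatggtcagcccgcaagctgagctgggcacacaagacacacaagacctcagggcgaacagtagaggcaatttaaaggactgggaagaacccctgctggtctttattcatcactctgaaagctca
*Epha4* Class II, chr1:77437172-77437291: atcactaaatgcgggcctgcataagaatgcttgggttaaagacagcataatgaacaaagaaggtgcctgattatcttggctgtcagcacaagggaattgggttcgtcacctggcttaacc
*Dppa5a* Class I, chr9:78223552-78223651: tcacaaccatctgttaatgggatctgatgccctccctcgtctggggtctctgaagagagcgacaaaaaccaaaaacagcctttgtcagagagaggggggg
*Dppa5a* Class II, chr9:78212712-78212791: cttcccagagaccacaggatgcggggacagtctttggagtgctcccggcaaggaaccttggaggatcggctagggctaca
*Ift52* and *Mybl2* Class I, chr2:162857592-162857831: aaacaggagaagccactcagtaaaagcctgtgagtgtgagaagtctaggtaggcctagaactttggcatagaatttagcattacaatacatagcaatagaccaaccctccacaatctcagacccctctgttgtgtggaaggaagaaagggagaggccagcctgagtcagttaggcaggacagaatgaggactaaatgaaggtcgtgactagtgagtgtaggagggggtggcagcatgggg
*Ift52* and *Mybl2* Class II, chr2:162887732-162887991: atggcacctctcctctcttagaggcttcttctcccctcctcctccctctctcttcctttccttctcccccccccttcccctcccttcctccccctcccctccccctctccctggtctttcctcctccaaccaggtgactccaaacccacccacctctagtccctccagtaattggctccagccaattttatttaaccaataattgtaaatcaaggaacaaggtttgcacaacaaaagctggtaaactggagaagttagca

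In the intron of *Etv5*, 880 bp separated the pair. The Class I interval held the complete ESRRB sequence and lost both factors, and the Class II interval held an octamer on the minus strand (read as ATTTGCAT on the plus strand) and kept OCT4. The *Epha4* pair, 820 bp apart, the *Dppa5a* pair, 10760 bp apart, and the pair at *Ift52* and *Mybl2*, 29900 bp apart, held none of the 4 motifs within the intervals. A missing match says only that these letters are not in the interval. Within 100 bp of its centre the *Dppa5a* Class II interval, which kept OCT4, did have an ESRRB match. The other intervals of these pairs without a match had none there either.

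A second set was chosen after the binding values had been seen, because their clusters carry the clearest gains and losses. These are the windows within 100 bp of the interval centre, with the same marking.
*Sox2* gene cluster, Class II, chr3:34552892-34553091: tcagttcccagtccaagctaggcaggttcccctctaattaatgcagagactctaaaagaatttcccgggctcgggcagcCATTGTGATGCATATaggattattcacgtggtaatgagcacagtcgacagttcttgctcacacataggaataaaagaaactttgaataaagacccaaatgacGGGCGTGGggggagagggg
Cluster downstream of *Sox2*, Class I, chr3:34660242-34660441: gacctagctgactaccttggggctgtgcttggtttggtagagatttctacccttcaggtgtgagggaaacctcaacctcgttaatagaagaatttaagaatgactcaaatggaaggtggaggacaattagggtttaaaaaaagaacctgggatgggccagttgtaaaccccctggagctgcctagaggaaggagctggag
*Tet1*, Class I, chr10:62359652-62359851: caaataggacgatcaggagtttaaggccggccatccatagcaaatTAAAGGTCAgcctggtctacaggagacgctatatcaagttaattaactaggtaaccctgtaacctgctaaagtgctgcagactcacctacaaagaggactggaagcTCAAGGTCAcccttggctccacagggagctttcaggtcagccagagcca
*Hoxb8*, OCT4 gained, chr11:96143692-96143891: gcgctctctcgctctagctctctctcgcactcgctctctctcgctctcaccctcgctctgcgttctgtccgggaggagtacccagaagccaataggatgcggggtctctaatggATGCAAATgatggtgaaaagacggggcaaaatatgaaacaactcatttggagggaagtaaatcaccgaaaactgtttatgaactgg

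The Class II window near *Sox2* held an Oct-Sox match and a KLF match. The Class I window of the *Tet1* intron held ESRRB matches at 2 positions. The interval gained at *Hoxb8*, whose centre lies in an exon of that gene, held a complete octamer. Each window shown is 1 of several intervals of that fate in its cluster. The other gained intervals of the *Hoxb* cluster held none of the marked motifs within 100 bp of their centres. The same was true of the other Class I intervals at *Tet1* and the other Class II intervals at the *Sox2* gene.

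The clusters were found on 20 chromosomes and were mostly small. Of the 301 clusters, 145 held 5 intervals, 69 held 6, 37 held 7, 22 held 8, 13 held 9 and 15 held 10 or more. They spanned 1460 to 63540 bp, with a median of 16860 bp (interquartile range 12020 to 23180 bp). The intervals themselves were narrow, with a median width of 80 bp in the clusters and outside them, and covered 4.47% of the 5477.2 kb spanned. Gaps between neighbours had a median of 1960 bp (390 to 5560 bp), and 448 of 1563 gaps (28.7%) were 500 bp or less. Whether such intervals are parts of 1 broader bound stretch cannot be told from positions alone. Joining intervals within 500 bp left 142 clusters with 861 intervals. The largest gap inside a cluster was 12460 bp and the smallest gap from a cluster to the next interval outside was 12560 bp.

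By position, 66.8% of member intervals lay between protein-coding genes, 30.0% in introns and 3.11% in exons. Among the other intervals the shares were 59.0%, 37.8% and 3.19%, so that the clusters lay more often outside genes. Interval centres within 1 kb of a transcription start site made up 8.10% of members (95% Wilson interval 6.95 to 9.43%) and 7.14% of the others, a difference of 0.96 percentage points (95% interval -0.95 to 2.87, from a variance clustered by chain). Of the clusters, 141 overlapped no protein-coding gene, 135 overlapped 1 and 25 overlapped 2 or more.

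OCT4 was listed at 1024, 1274 and 778 member intervals in Esrrb-GFP high, medium and negative, and NANOG was listed at 659, 371 and 28. OCT4 was therefore most frequent in the medium fraction, where it occupied 68.3% of members (66.2 to 70.4%) against 60.2% of the other intervals. In high the shares were 54.9% and 52.2%, and in negative 41.7% and 43.8%. For NANOG, members were bound less often than the other intervals in high (659 of 1864 against 8766 of 21903) and equally often in medium (19.9% in both). Both factors together were listed at 324, 205 and 12 members. Each list helped to choose the members, so the shares were taken again in clusters chained without the list in question, a comparison added after the values were seen. Intervals found in that list alone drop out of it, so its shares are not over the same intervals as those above. Without OCT4 of medium it covered 21738 intervals with 1292 members. OCT4 of medium was then at 63.3% of members and 56.8% of the other intervals, a difference of 6.49 percentage points (95% interval 3.59 to 9.40, variance clustered by chain), and NANOG of high at 27.5% and 31.3%, a difference of -3.82 points (-6.57 to -1.08). For OCT4 of high the difference was 2.46 points (-0.16 to 5.07) and for OCT4 of negative -1.83 points (-4.71 to 1.05), and both intervals include 0.

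The clusters held the most OCT4 intervals in medium and the fewest in negative. Clusters with 5 or more OCT4 intervals numbered 75 in high, 122 in medium and 37 in negative, and those with 5 or more NANOG intervals 22, 3 and 0. At least 1 OCT4 interval was present in 298, 300 and 273 clusters and at least 1 NANOG interval in 259, 212 and 21. From high to medium the number of OCT4 intervals was higher in 167 clusters, equal in 70 and lower in 64. From high to negative it was higher in 69, equal in 67 and lower in 165. For NANOG from high to medium, 7 clusters had more intervals, 114 as many and 180 fewer.

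**Figure D1:**
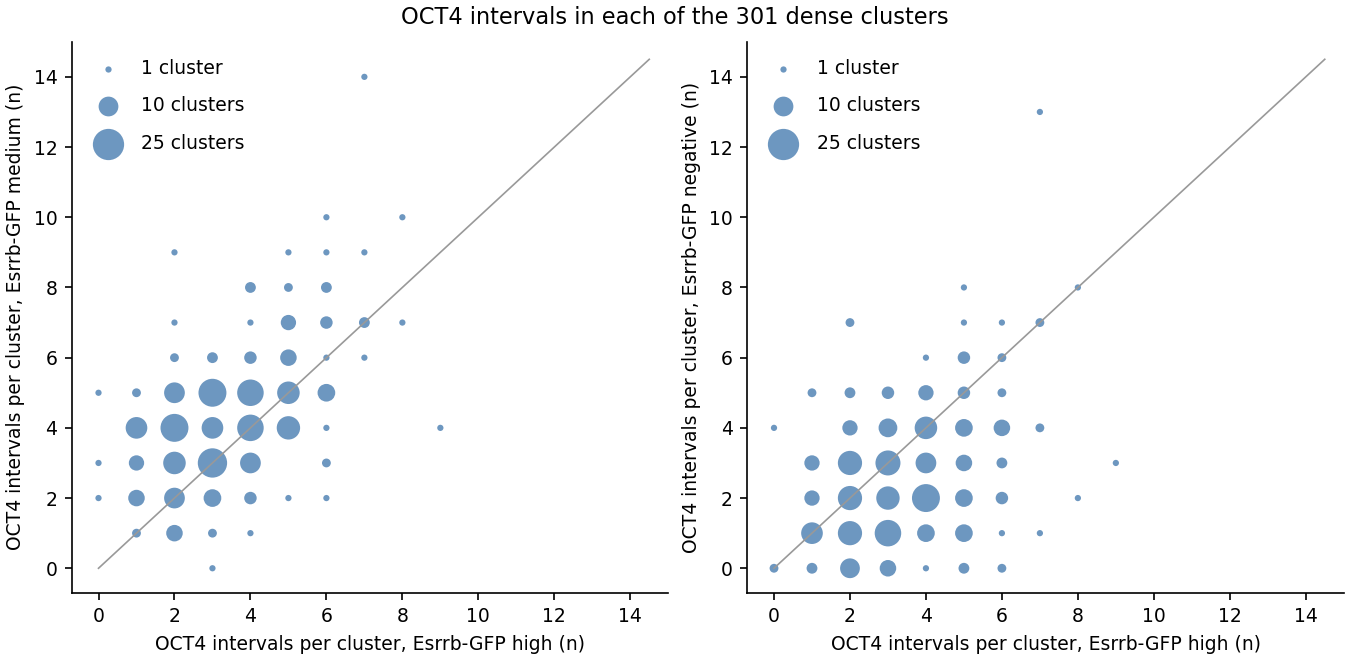
Number of OCT4 intervals per dense cluster in Esrrb-GFP medium (left) and negative (right) against Esrrb-GFP high, as counts; the area of a circle gives the number of clusters at that position and the grey line marks equal numbers. In medium, 167 of the 301 clusters lie above the line, and in negative 165 lie below it; the highest circle is the cluster of *Hoxb* genes, with 7 in high, 14 in medium and 13 in negative.

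When the rule was applied to the lists of each fraction alone, the high lists gave 136 clusters, the medium lists 156 and the negative lists 36. Of the clusters of high, 77 (56.6%) overlapped a cluster of medium and 19 (14.0%) a cluster of negative. Of the 36 clusters of negative, 19 (52.8%) overlapped a cluster of high and 26 (72.2%) a cluster of medium. The OCT4 lists alone gave 62, 112 and 34 clusters in high, medium and negative, and the NANOG lists 16, 1 and 0. The lists differ in length and hold 12449, 14464 and 10369 OCT4 intervals and 9425, 4729 and 286 NANOG intervals.

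OCT4 was lost from high to negative at 509 of 1024 member intervals, 49.7% (46.7 to 52.8%). Over all intervals of the OCT4 high list the share was 45.1%, and outside the clusters it was 44.7%. By medium, 204 of the 1024 (19.9%) were lost, against 21.3% over all intervals. Of the 509 lost intervals, 382 were still listed in medium and 127 were not. The share lost was 42.9% (41.6 to 44.1%) for intervals that stood alone, 47.1% in chains of 2, 46.3% in chains of 3 to 4, 49.6% in chains of 5 to 7 and 131 of 262 (44.0 to 56.0%) in chains of 8 or more. On both sides of the limit of the rule, the 145 chains of 5 had 53.7% lost and the 342 chains of 4 had 46.6%.

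Because medium and negative also helped to choose the clusters, OCT4 loss was compared again in clusters chained from the high lists alone. In these 136 clusters with 786 intervals, 300 of 593 OCT4 intervals were lost, 50.6% against 44.8% of the others, a difference of 5.79 percentage points (95% interval 0.75 to 10.8). With intervals within 500 bp joined, an alternative chosen after the values were seen, the difference was 5.83 but its interval included 0 (-0.55 to 12.2). In clusters chained without the OCT4 lists of high and negative, which define the loss, 330 of 681 OCT4 intervals were lost, 48.5% against 43.5% of the others, a difference of 4.92 points (0.30 to 9.53; added after the values were seen). Intervals found in those lists alone drop out of this comparison. NANOG was kept in medium at 50.4% of the NANOG intervals of the same clusters and 47.6% of the others, a difference of 2.76 points whose interval included 0 (-2.11 to 7.62).

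Gains accompanied the losses. OCT4 was gained at 263 of the 778 member intervals of negative, 33.8% (30.6 to 37.2%), near the 34.1% over all intervals. In medium, 454 of 1274 OCT4 members (35.6%, 33.1 to 38.3%) were absent in high, against 32.3% over all intervals. OCT4 intervals seen in medium alone made up 264 members (14.2%) and 9.35% of the other intervals. A gained interval was present in 163 clusters, and 120 clusters held both a lost and a gained interval.

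NANOG left nearly all member intervals. From high to negative 638 of 659 were lost, 96.8% (95.2 to 97.9%), against 97.5% over all intervals. From high to medium 312 of 659 were lost, 47.3% (43.6 to 51.2%), against 52.3% over all intervals. Of the 324 members with both factors in high, 177 were Class I (54.6%, 49.2 to 60.0%) and 138 were Class II (42.6%, 37.3 to 48.0%), against 55.3% and 42.6% over all intervals, so the split between the classes was near that over all intervals.

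Lost and kept OCT4 intervals often lay in the same cluster. Among the 269 clusters with 2 or more OCT4 intervals in high, 38 lost them all, 45 kept them all and 186 (69.1%) held lost and kept intervals side by side. With 4 or more OCT4 intervals in high there were 135 clusters, of which 11 lost all, 12 kept all and 112 were mixed. With 49.7% of the intervals lost, many clusters of several intervals hold both fates. At equal numbers of OCT4 intervals in high, a comparison added after the values were seen, 30 of 66 clusters with 2 (45.5%, 34.0 to 57.4%) and 44 of 68 with 3 (64.7%) were mixed, against 42.7% and 70.2% of chains of 2 to 4 intervals, and the intervals of the shares overlap. In 91 clusters lost, kept and gained intervals occurred together. Class I intervals were present in 126 clusters and Class II intervals in 113, and 47 clusters held both.

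Neighbouring OCT4 intervals of high within a cluster had the same fate, both lost or both kept, in 410 of 726 pairs, 56.5% (52.8 to 60.0%). In chains of 2 to 4 intervals the share was 56.2%. Pairs in different chains shared their fate in 52.0% of cases up to 100 kb apart and in 51.4% (50.1 to 52.7%) beyond. Within the clusters the share was 60.6% (53.6 to 67.2%) for gaps up to 1 kb, 58.1% for gaps up to 5 kb and 52.6% (47.0 to 58.2%) for longer gaps. When intervals within 500 bp were joined, the share in the clusters was 53.5% (48.5 to 58.5%), an interval that includes the values of pairs in different chains. The bins of gap were added after the values were seen. Pairs that share an interval are not independent, and their intervals cover counting error only.

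**Figure D2:**
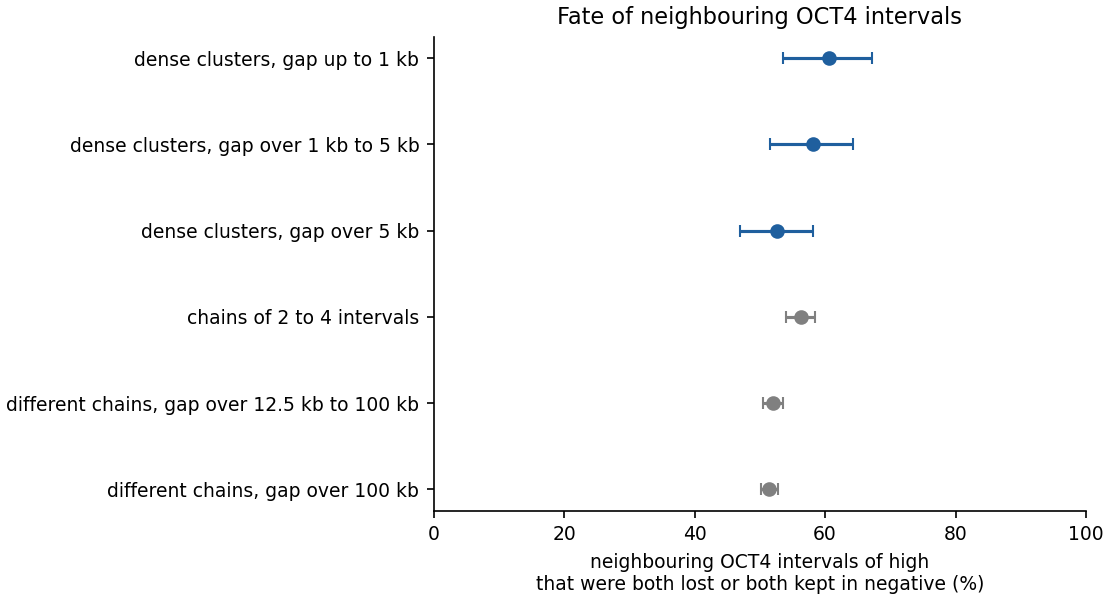
Share of neighbouring OCT4 intervals of Esrrb-GFP high that were both lost or both kept in negative (percent, points) with 95% Wilson intervals (bars), for pairs within dense clusters by gap (blue) and for other pairs (grey). The blue points run from 60.6% at gaps up to 1 kb to 52.6% at gaps over 5 kb, and the grey points from 56.2% to 51.4%.

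OCT4 loss was most frequent where NANOG had been listed in high. OCT4 was lost at 178 of 324 members (54.9%, 49.5 to 60.3%) where NANOG was at the same interval, at 278 of 558 (49.8%, 45.7 to 54.0%) where NANOG was elsewhere in the cluster, and at 53 of 142 (37.3%, 29.8 to 45.5%) where the cluster had no NANOG in high. Outside the clusters the same grouping gave 55.9%, 46.6% and 38.2%. The 3 groups were formed after the values were seen. The comparisons share the OCT4 lists of high and negative.

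**Figure D3:**
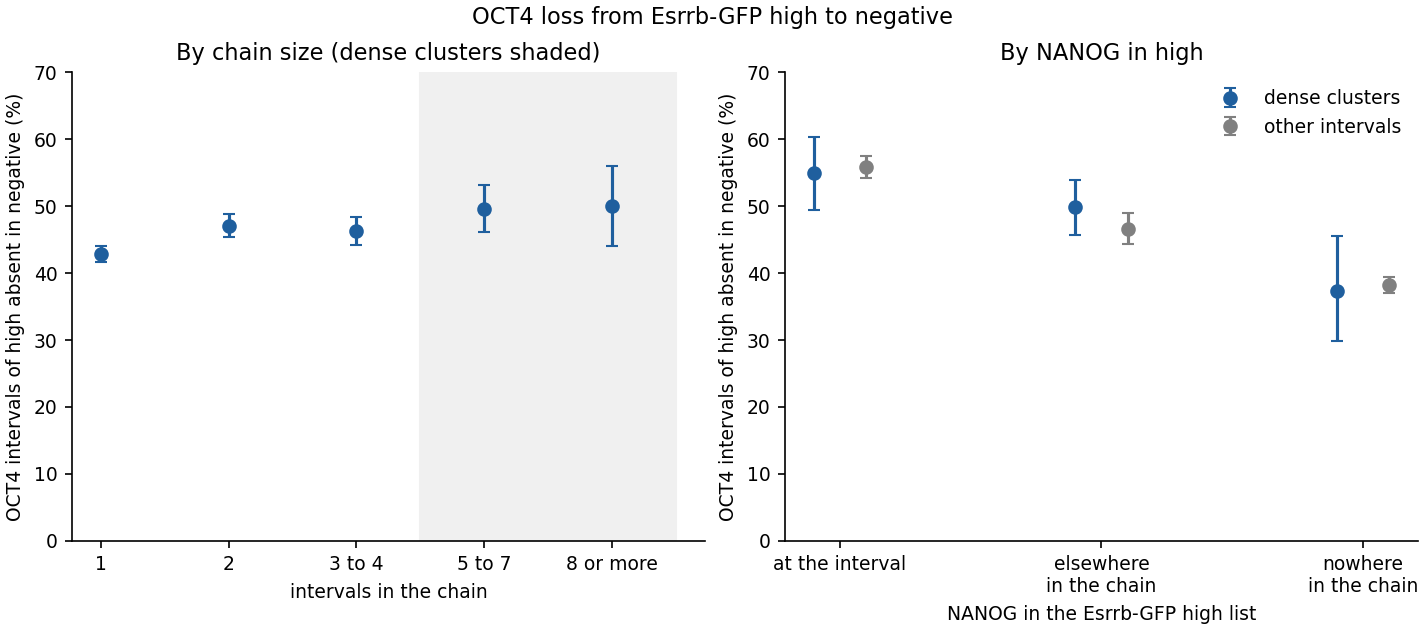
Share of the OCT4 intervals of Esrrb-GFP high that were absent in negative (percent, points) with 95% Wilson intervals (bars), by the number of intervals in the chain (left, dense clusters shaded) and by where NANOG was listed in high (right, dense clusters in blue and other intervals in grey). The share is 42.9% for intervals that stood alone and 49.6% in chains of 5 to 7, and in dense clusters it is 54.9%, 49.8% and 37.3% from NANOG at the interval to NANOG nowhere in the chain.

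A group of 40 clusters with 239 intervals had no NANOG in any fraction. Their OCT4 intervals numbered 135 in high, 169 in medium and 148 in negative, and 38.5% (30.7 to 46.9%) of those of high were lost. In 17 of the 40 OCT4 had more intervals in negative than in high, and in 14 it had fewer. Where NANOG marked more than 50% of a cluster's intervals (83 clusters), OCT4 had 257, 296 and 160 intervals, 51.4% (45.3 to 57.4%) were lost, and 11 clusters had more OCT4 intervals in negative and 58 fewer. The largest of the 40, beside *Dlx6* and *Pax7*, were named after their values were seen and included those closest to *Six3*, with OCT4 at 4, 5 and 4 intervals in high, medium and negative, *Meis2* (2, 7 and 5), *Hoxc11* (1, 4 and 5) and *Nkx2-2* (2, 6 and 3), all of which encode transcription factors of development. Clusters without NANOG also lay closer to genes: 14.6% of their intervals were within 1 kb of a transcription start site against 3.77% in the clusters rich in NANOG. Their GC content was 51.7% against 48.1%, and ESRRB matches were found at 5.02% against 16.9% of intervals. These groups were formed after the values were seen, and the part of base composition or distance to genes in the OCT4 values was not tested.

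The cluster with the most intervals covered the *Hoxb* genes from *Hoxb8* to *Hoxb3* (chr11:96143712-96202651), transcription factors that pattern the body axis. Of its 19 intervals, OCT4 was at 7 in high, 14 in medium and 13 in negative, and NANOG at 1, 0 and 0. OCT4 was thus lost at 1, kept at 6 and gained at 7 intervals. Of the kept intervals 5 lay in the part from *Hoxb8* to *Hoxb6*, and 5 of the gains lay at *Hoxb4* and *Hoxb3*.

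Other large clusters had at least as many OCT4 intervals in negative as in high. At *Hoxd13* to *Hoxd9* (chr2:74507412-74537271, 11 intervals) OCT4 was at 6, 10 and 6 intervals in high, medium and negative, with 2 lost and 2 gained, and NANOG at 1, 0 and 0. At *Dlx6* and *Dlx5* (chr6:6805692-6832431, 11 intervals), homeobox genes of head and limb development, OCT4 was at 8, 7 and 8, with 2 lost and 2 gained, and NANOG at none. At *Pax7* (chr4:139375892-139393851, 10 intervals), a factor of neural crest and muscle, OCT4 was at 2, 9 and 7, with 6 gained, and NANOG at none. Equal numbers in high and negative thus did not mean the same intervals. At *Gm9979* and *Tcfap2a* (chr13:40799672-40832971, 13 intervals), where *Tcfap2a* encodes AP-2 alpha, OCT4 was at 7, 9 and 7 intervals, of which 4 were lost and 4 gained, and NANOG at 1, 1 and 0.

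The clusters at *Dppa5a*, *Epha4* and *Etv5* had fewer OCT4 intervals in negative than in high. At *Dppa5a* (chr9:78207532-78223651, 12 intervals), which encodes an RNA-binding protein of pluripotent cells, OCT4 was at 8 intervals in high, 10 in medium and 2 in negative and NANOG at 4, 2 and 0. At *Epha4* (chr1:77437172-77469431, 11 intervals), an ephrin receptor gene, OCT4 was at 5, 7 and 1 and NANOG at 8, 4 and 0. At *Etv5* (chr16:22398592-22416451, 11 intervals), an ETS factor downstream of FGF signalling, OCT4 was at 7, 7 and 4 and NANOG at 8, 4 and 0, with 3 Class I and 2 Class II intervals. *Etv5* and *Epha4* had the most NANOG intervals in high of the 12 largest clusters, and all 8 were gone in negative in each.

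The other large clusters lay at or near genes as follows. The cluster at *Gm10244* (chr6:39370732-39398551, 11 intervals) had OCT4 at 6, 9 and 3 and NANOG at 7, 5 and 0. The cluster 44542 bp from *Zfp281* (chr1:138571172-138597411, 12 intervals), a zinc finger factor of the exit from the naive state, had OCT4 at 4, 8 and 4 and NANOG at 5, 3 and 0. Near *Spin1* (chr13:51138932-51181691, 11 intervals), a reader of histone methylation, OCT4 was at 9, 4 and 3, and this was the 1 cluster of the 12 in which medium had over 1 interval fewer than high. At *Tbx3* (chr5:120107492-120171031, 11 intervals), a T-box factor of the naive network, OCT4 was at 4, 5 and 5 with 3 lost and 4 gained, and NANOG at 5, 3 and 1.

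**Figure D4:**
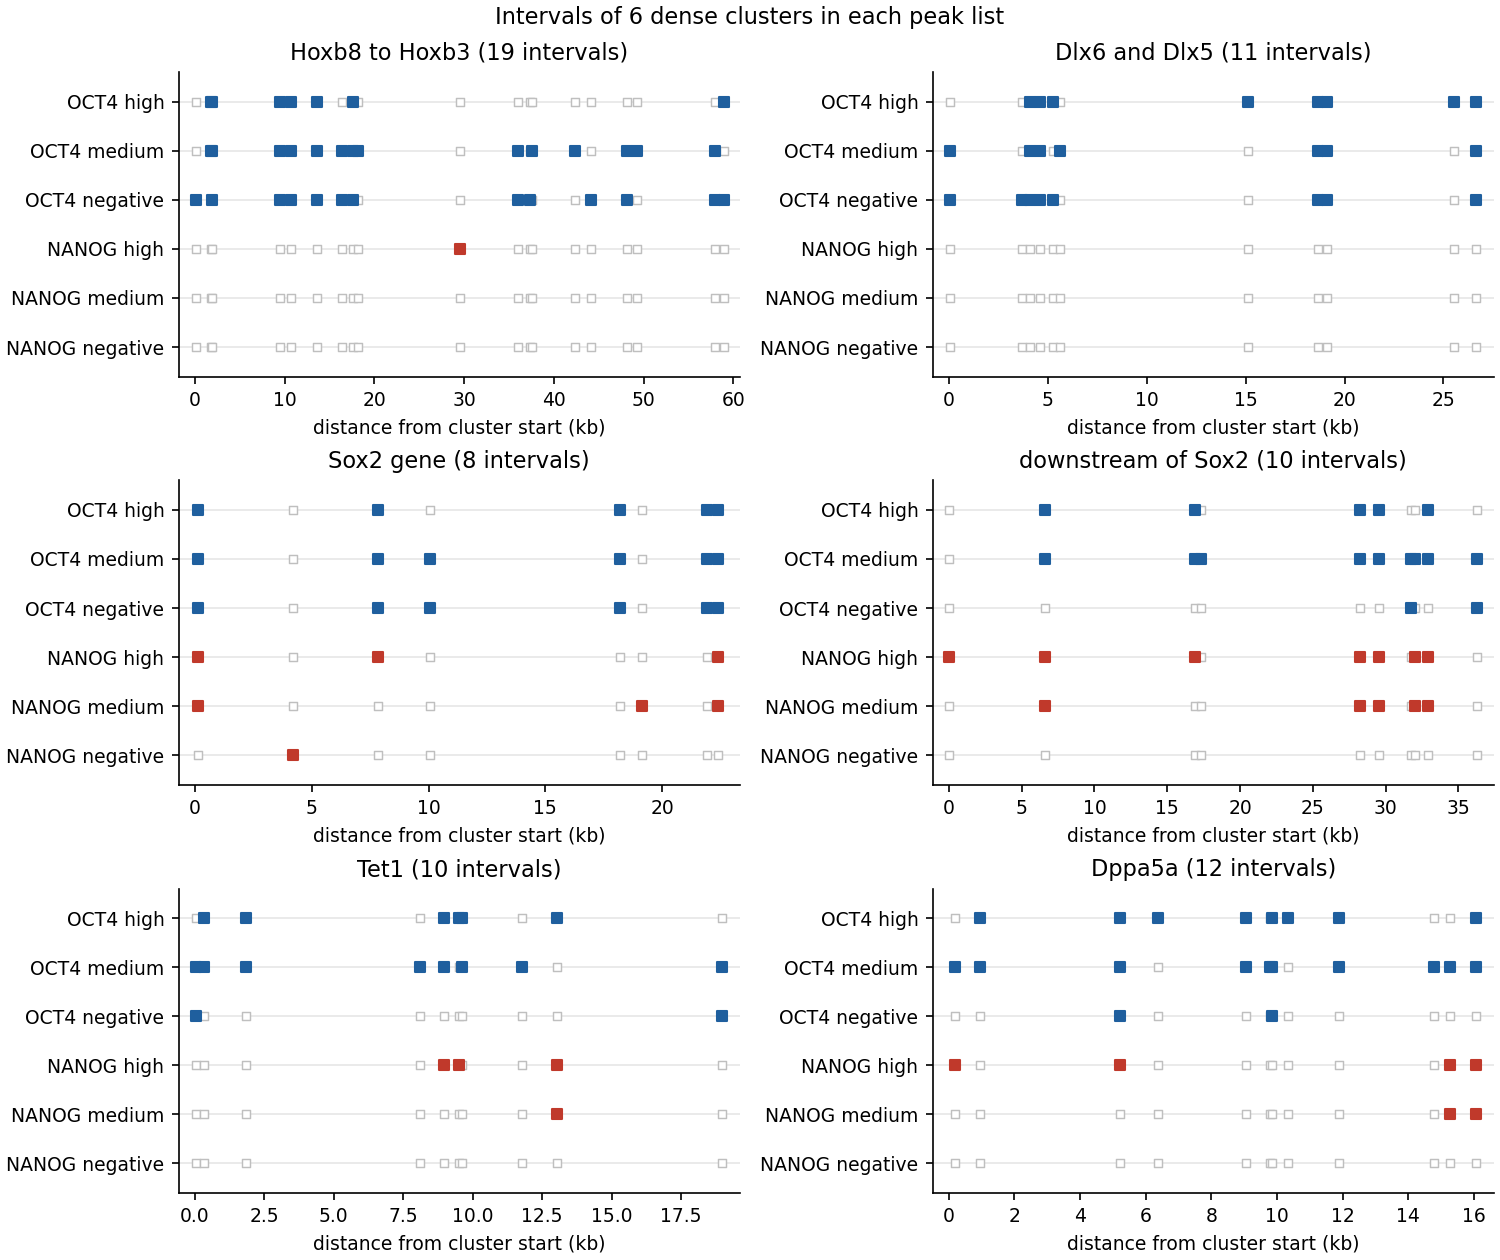
Positions of the intervals of 6 dense clusters as distance from the start of the cluster (kb) in each of the 6 peak lists (rows): filled squares are intervals present in that list (OCT4 blue, NANOG red) and open squares are intervals of the cluster that are absent from it. Between high and negative OCT4 goes from 7 to 13 filled intervals at the *Hoxb* genes, 2 of 8 are lost and 2 others gained at *Dlx6* and *Dlx5*, all 5 OCT4 intervals of high remain at the *Sox2* gene and none of 5 remains downstream of it, and *Tet1* and *Dppa5a* go from 6 and 8 to 2 and 2.

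Pluripotency genes were frequent at the clusters. Within 20 kb of a cluster lay 9 of 17 listed genes of core and general pluripotency and 7 of 19 naive genes, against 405 of 22238 protein-coding genes (1.82%). The lists were drawn up with earlier results of these data known, and the genes were compared with no test. For other lists the counts were 3 of 14 formative and primed genes (*Pou3f1*, *Lef1*, *Etv5*), 4 of 17 genes of LIF, BMP and Nodal signalling, 2 of 11 of FGF signalling and its feedback, and 6 of 11 microRNA genes, which are the members of the miR-290 to miR-295 group at 1 cluster.

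At the naive genes OCT4 was mostly at fewer intervals in negative than in high, which was also the more frequent direction over all 301 clusters (165 fewer, 69 more). At *Esrrb* itself (5 intervals), OCT4 was at 3, 3 and 2 and NANOG at 4, 3 and 0 in high, medium and negative. At *Zfp57* (8 intervals), a zinc finger factor that protects imprints, OCT4 was at 7, 6 and 1 and NANOG at 4, 0 and 0. At *Nr5a2* (6 intervals), a nuclear receptor, OCT4 was at 5, 4 and 1 and NANOG at 1, 1 and 0. At *Tet2* (6 intervals), a dioxygenase of DNA demethylation, OCT4 was at 2, 3 and 0 and NANOG at 5, 3 and 0. At *Jam2* (5 intervals), a junctional adhesion molecule, OCT4 was at 2, 2 and 0, and at *Mybl2* (9 intervals), a cell cycle regulator, at 4, 8 and 2. *Tbx3* was the 1 naive gene of the 7 with more OCT4 intervals in negative than in high.

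The core and general genes varied more. *Tet1* (10 intervals), a dioxygenase like TET2, had OCT4 at 6, 8 and 2 and NANOG at 3, 1 and 0; all 6 OCT4 intervals of high were lost and the 2 of negative were gained. *Foxd3* (7 intervals), a forkhead factor, had OCT4 at 2, 4 and 1 and NANOG at 5, 0 and 0. *Sall1* (9 intervals), a spalt zinc finger factor, had OCT4 at 5, 7 and 3 and NANOG at 5, 2 and 0. These 3 genes of transcription and DNA demethylation had fewer OCT4 intervals in negative. In contrast *Lin28a* (6 intervals), an RNA-binding protein that blocks let-7 maturation, kept all 4 OCT4 intervals and had OCT4 at 4, 5 and 5 while NANOG went from 2 to 0. *Sall4* (7 intervals) had OCT4 at 2, 5 and 3, *Zscan10* (5 intervals) at 2, 4 and 3, *Tdgf1* (8 intervals), a Nodal co-receptor, at 3, 5 and 4, and *Mycn* (7 intervals) at 4, 6 and 4. In all 9 core genes OCT4 was at more intervals in medium than in high. The same direction was found in 167 of all 301 clusters, against 64 with fewer, and the whole OCT4 list was longer in medium.

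The *Sox2* locus held clusters of opposite fate. The cluster over the gene (chr3:34545172-34567811, 8 intervals) had OCT4 at 5, 6 and 6 and NANOG at 3, 3 and 1 in high, medium and negative; all 5 OCT4 intervals of high were kept, and its 3 intervals with both factors were Class II. A further cluster of 10 intervals lay 76049 bp downstream (chr3:34627432-34663771) and was named after its values were seen, since it is beyond the distance used for the lists. There OCT4 was at 5, 9 and 2 and NANOG at 7, 5 and 0; all 5 OCT4 intervals of high were lost, all 5 were Class I, and the 2 OCT4 intervals of negative were gained. *Sox2* is known to be driven in ESCs by enhancers next to the gene and by a distal control region downstream of it.

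Among the signalling and primed genes, *Pou3f1* (5 intervals), a POU factor of the primed state, had OCT4 at 0, 3 and 4, all 4 gained, and NANOG at 1, 1 and 0. *Lef1* (7 intervals), a Wnt effector, had OCT4 at 5, 6 and 3 and NANOG at 3, 1 and 0. *Lefty1* and *Lefty2*, Nodal antagonists, shared 1 cluster of 7 intervals with OCT4 at 3, 5 and 3, and *Nodal* (6 intervals) had OCT4 at 2, 5 and 2. *Fgfr2* (7 intervals) had OCT4 at 2, 4 and 2 and NANOG at 5, 1 and 0, and *Spry4* (8 intervals), an inhibitor of ERK signalling, had OCT4 at 5, 4 and 2 and NANOG at 4, 1 and 0. The cluster at the miR-290 to miR-295 genes (10 intervals), microRNAs that sustain the ESC cell cycle, had OCT4 at 7, 7 and 4 and NANOG at 5, 5 and 0, with 2 Class I and 2 Class II intervals. Of these 7 clusters, OCT4 had more intervals in negative than in high at *Pou3f1*.

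Clusters of uniform fate were named after their values were seen. The 11 clusters that lost 4 or more OCT4 intervals without keeping any included, beside *Tet1* and the one downstream of *Sox2*, those closest to *Zfp462* (6 of 6 lost), *Rbpj*, the Notch effector (5 of 5), and *Ank3* (5 of 5). A further cluster, 24090 bp from the closest gene *Rpl12-ps1*, lost 6 of 6 and holds 9 intervals within 5400 bp. The 12 that kept all of 4 or more included those at *Sox2*, *Lin28a* and *Zfhx3* (5 of 5 kept) and those closest to *Pim1* (4 of 4, at 23146 bp) and the histone gene *Hist1h4h* (5 of 5). The clusters at the *Hoxb* genes and *Pax7* and the one closest to *Osbp* had 5 or more gains (7, 6 and 6).

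NANOG was left in negative at 28 member intervals in 21 clusters. In all 6 lists there were 5 members, which included 1 each in clusters closest to *Lmx1b* and *Tspan5* and 1 in each of a pair of clusters closest to *Gm15319*. The 5 clusters with 2 or 3 of the 28 intervals included those closest to *Ptprg*, *Vmn2r96* and *Gm15319* (2 clusters). Whether mapping of reads in these regions played a part was not tested.

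The DNA of the member intervals was compared with the other intervals, since the rule did not use sequence. Within 100 bp of the centre, the octamer was found at 6.12% of members and 8.01% of the other intervals (7.86% of all), a difference of -1.89 percentage points (95% interval -3.07 to -0.71). Oct-Sox, which contains the octamer at its 3′ end and was allowed 2 mismatches, was found at 4.45% and 6.99% (6.79% of all), a difference of -2.54 points (-3.68 to -1.39). Members thus carried these motifs less often than intervals elsewhere under this rule, but when chains allowed gaps of 25 kb the octamer difference was -0.36 points and its interval included 0 (-1.35 to 0.63). The ESRRB sequence was found at 12.1% and 11.1% (11.2% of all; difference 1.00, -0.78 to 2.78) and KLF at 4.88% and 4.11% (4.17% of all; difference 0.77, -0.27 to 1.80), and both intervals include 0. When only the widest interval of each group within 500 bp was used, an alternative chosen after the values were seen, the differences were -1.80 for the octamer (-3.11 to -0.50) and -2.69 for Oct-Sox (-3.89 to -1.49). GC content was 49.5% in members and 48.0% in the others, a difference of 1.48 points (1.13 to 1.83), examined after the values were seen; whether it sets the motif shares was not tested.

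Motif matches were also counted by the fate of a member and within mixed clusters, comparisons added after the values were seen. The octamer or Oct-Sox was matched at 15.0% (12.1 to 18.3%) of kept, 7.86% (5.82 to 10.5%) of lost and 14.1% (10.4 to 18.8%) of gained OCT4 members. The ESRRB sequence was matched at 10.7% (8.30 to 13.6%) of kept, 15.5% (12.6 to 18.9%) of lost and 4.18% (2.35 to 7.33%) of gained members. Class I members had it at 24.9% (19.1 to 31.7%) and Class II members at 18 of 138 (8.41 to 19.7%). Outside the clusters the ESRRB sequence was matched at 7.61% of kept, 14.0% of lost and 5.57% of gained intervals. There it was at 17.8% of Class I and 11.7% of Class II intervals, so the order was not particular to the clusters. OCT4 members of medium alone had the octamer or Oct-Sox at 5.68% and members with NANOG but no OCT4 in any list at 5.11%. Outside the clusters the octamer or Oct-Sox was matched at 21.0% of kept, 12.7% of lost and 17.8% of gained intervals, so that the order of the fates was the same at a higher level.

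The contrast was also present within clusters. In the 186 clusters with lost and kept intervals, the octamer or Oct-Sox was matched at 60 of 372 kept intervals (16.1%, 12.7 to 20.2%) and 31 of 371 lost intervals (8.36%, 5.95 to 11.6%). The ESRRB sequence was matched at 10.8% of kept and 14.6% of lost intervals (11.3 to 18.5%), and NANOG was listed in high at 27.7% and 34.2%; for both the intervals overlap. A match to letters is a description and not evidence that a factor binds there.

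**Figure D5:**
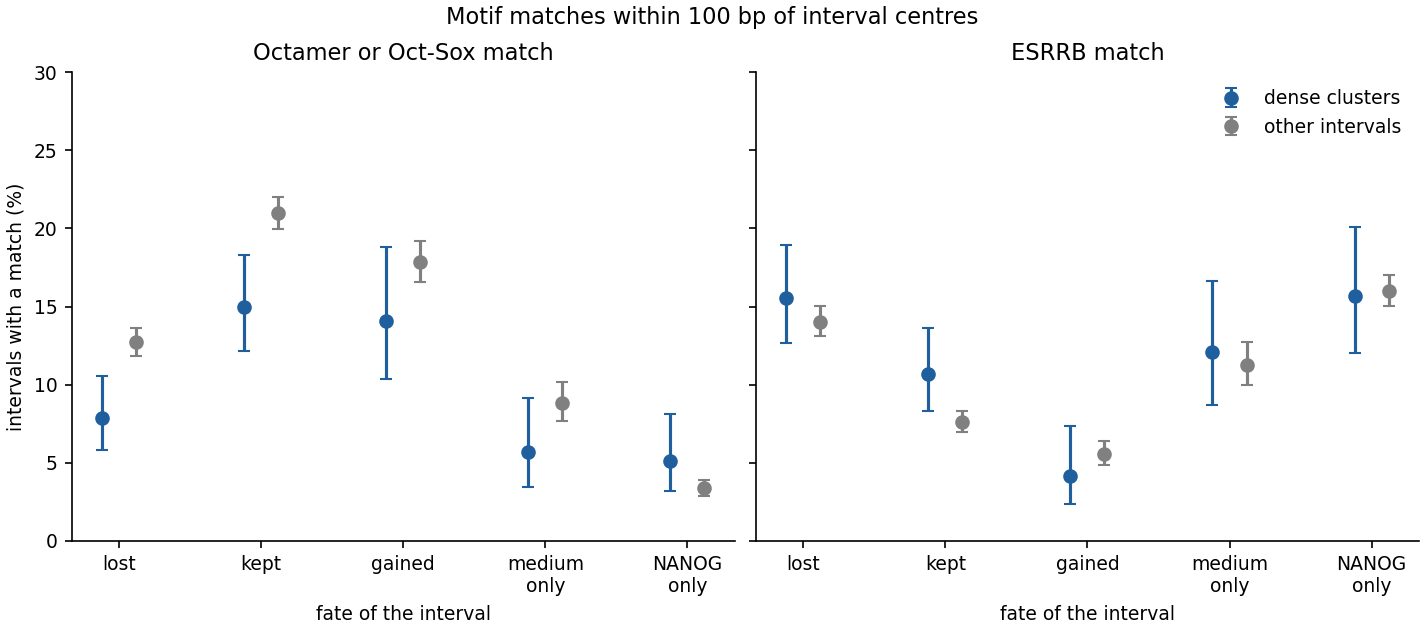
Share of intervals with an octamer or Oct-Sox match (left) or an ESRRB match (right) within 100 bp of the centre (percent, points) with 95% Wilson intervals (bars), by the fate of OCT4 at the interval, for dense clusters (blue) and other intervals (grey). In dense clusters the left panel has 7.86% for lost and 15.0% for kept intervals, and the right panel has 15.5% for lost and 4.18% for gained intervals.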

How the data were processed

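ChIP-Seq for OCT4 and NANOG was done on 3 sorted fractions of E-GFPd1 ESCs, grouped here by antibody and fraction as labelled. The submitters' processing notes name Bowtie and mm9. Per the study's methods, the authors used a GeneProf workflow with SISSRs as the peak caller, joined peaks that overlapped between datasets, and removed joined peaks from fractions that retained too little of their highest depth-normalised signal; versions are not given in the sources used here. The deposited lists give positions without scores, so depth is unknown and a weaker interval cannot be told from an absent one.

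Of 51722 list entries, 23767 were distinct, and no interval overlapped another. Intervals with gaps of at most 12.5 kb were chained and chains of at least 5 were kept. The limits of the rule, the gene lists and the comparisons were chosen with earlier results of these data known. Named are the 12 clusters with the most intervals, clusters within 20 kb of naive and core pluripotency genes, and for each other list counts and up to 4 genes; names outside this rule are stated to have been chosen after the values were seen. Some loci are not reported here. Shares have 95% Wilson intervals, which describe counting error alone, without the variation between cultures. Differences have 95% intervals from a variance clustered by chain. Positions are on mm9 (NCBIM37), counted from 1, and genes are those of GENCODE for that assembly (22380 protein-coding genes). Motifs were scanned on both strands within 100 bp of interval centres, with 0 mismatches for the octamer and KLF, 1 for ESRRB and 2 for Oct-Sox. The functions were tested on simulated data and recovered 7 of 7 known answers. Python 3.11.15, numpy 2.4.6, pandas 2.3.3, scipy 1.17.1, statsmodels 0.14.6 and matplotlib 3.10.9 were used.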

Additional observations from a re-analysis of the deposited data

Results flagged for a closer look

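OCT4 and NANOG moved in opposite directions between high and medium in the dense clusters. OCT4 was listed at 250 more member intervals in medium than in high (1274 and 1024), while the change for NANOG was -288 (371 and 659). Over the whole lists OCT4 went from 12449 to 14464 intervals and NANOG from 9425 to 4729, so the opposite directions are those of the series and not particular to the clusters. With 1 library per factor and fraction the difference between the factors was not tested. The part of library depth was not tested, since the lists hold no read numbers.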

How the results depend on the processing

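Of 142 alternative values, 112 kept their side and direction or moved little and none reversed. The number of intervals, 1864, was 705 with a gap of 5000 bp, 3942 with 25 kb, 3232 and 466 with at least 4 and 8 intervals, 861 when joined within 500 bp, 372 for intervals of at least median width, 786 for the high lists and 1143 for the OCT4 lists. The share of OCT4 lost was 45.5% when joined (42.5% of the others) and 53.2% for wide intervals. OCT4 gained was 38.4% with the gap of 5000 bp, 38.2% with at least 8 intervals, 30.0% when joined and 29.2% for wide intervals. NANOG lost was 98.0% with at least 8 intervals, 98.2% for the high lists and 98.0% for the OCT4 lists, where NANOG was kept in medium at 60.2%. Class I was 60.2% with at least 8 intervals, and neighbours shared a fate in 60.3% of pairs with the gap of 5000 bp and 53.5% when joined.

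With 25 kb the octamer difference was -0.36 points, its interval then including 0, KLF was 0.77 and NANOG kept from the high lists 5.56, their intervals then excluding 0. KLF was 4.43 with 1 mismatch. OCT4 lost from the high lists was 5.83 when joined, its interval then including 0. With genes of all biotypes 11.2% of members were within 1 kb of a start site. The causes were not tested, beyond the fewer or more intervals that each rule keeps.

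Chaining without each list in turn, the number of intervals ranged from 1292 to 1858, OCT4 lost from 44.8 to 49.8%, OCT4 gained from 26.5 to 34.8%, NANOG lost from 94.8 to 97.1% and NANOG kept in medium from 51.2 to 69.7%. The lowest OCT4 loss was without the OCT4 list of high, and the lowest gain without that of negative. The extremes of NANOG loss (94.8%) and of NANOG kept (69.7%) were without its list of high. Leaving out a list also removed the intervals found in that list alone. Without the NANOG list of high, 20793 intervals remained, and the NANOG members of high went from 659 to 403. The part of this removal in the shifted shares was not separated from the choice of members. No paired analysis was possible because there is a single library for each factor and fraction. With no read numbers, depth limits every absence.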
